A study of Larimichthys crocea with 4 samples.

Results

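Hemoglobin chains and 5-aminolevulinate synthase (ALAS), the enzyme that starts heme synthesis, were followed in liver RNA of the large yellow croaker (Larimichthys crocea). Members were the unigenes (assembled transcripts) whose best protein hit was named hemoglobin, alpha globin or beta globin, or whose KEGG orthology definition was 5-aminolevulinate synthase. This rule took 13 of the 57216 unigenes: 3 alpha chain unigenes, 7 beta chain unigenes and 3 ALAS unigenes. It used names only and no measured value.

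The 4 liver libraries came from fish fasted for 21 days, fish under cold stress for 12 h, fish under thermal stress for 12 h, and normal feeding fish. The fasting fish received no food at all, and the fasting and normal feeding libraries each held RNA of several individuals kept in sea net-cages. The temperatures of the stress treatments and the number of fish behind those libraries are not given in the sources used here. There was 1 library per condition, so no value below has an error between replicates, and all 3 comparisons share the normal feeding library.

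Hemoglobin, the oxygen carrier of red blood cells, is built of alpha and beta chains, each holding a heme group. Teleost fish carry several genes for each chain, and the hemoglobins made from them can differ in oxygen affinity and in their response to pH and temperature. Heme is made from glycine and succinyl-CoA in a chain of steps that starts with ALAS in the mitochondrion. Vertebrates have a nonspecific form of ALAS (ALAS1), which in liver supplies heme for cytochromes and is held back by heme itself, and an erythroid-specific form (ALAS2), which serves hemoglobin in developing red blood cells.

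The values are raw counts of fragments on unigenes, and the libraries were of like depth, with 1.15 (fasting), 1.05 (thermal stress) and 1.03 (normal feeding) times the fragments of the cold stress library. CPM is a unigene's fragments per 1000000 counted fragments of its library, and FPKM divides this further by unigene length in kilobases. The median log2 ratio over all unigenes with a ratio was -0.10 for fasting, 0.18 for cold stress and -0.19 for thermal stress, each over normal feeding. Summed hepatocyte markers (fibrinogen chains, transferrin, complement C3, AMBP and apolipoprotein A-I) came to 99200 CPM in the fasting library, 86800 under cold stress, 89900 under thermal stress and 109000 under normal feeding, so the defining transcripts of liver were abundant in all 4 libraries. By gene, transferrin (log2 ratio -1.17), complement C3 (-1.16) and the fibrinogen beta chain (-1.90) were more than 2-fold lower after fasting. Apolipoprotein A-I was more than 2-fold higher there (1.31). Exocrine pancreas enzymes came to 98100 CPM in the fasting library, 55200 under cold stress, 40500 under thermal stress and 39200 under normal feeding. Their part in the ratios below was not tested beyond a scaling without these enzymes.

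A unigene was called higher or lower at an exact two-sided binomial p under 0.05 and a ratio of at least 2-fold, criteria that compare the 2 libraries and cover counting error only. After fasting, 1 of the 13 members was called higher and 0 lower, beside 12.8% and 18.2% of 56094 unigenes. Under cold stress, 2 members were called higher and 2 lower, beside 20.8% and 13.8% of 55895 unigenes. Under thermal stress, 0 members were called higher and 2 lower, beside 9.60% and 16.1% of 55604 unigenes. In either direction, 31.0% of all unigenes were called for fasting, 34.6% for cold stress and 25.7% for thermal stress. The members are too few to set their share of calls apart from these. Under cold stress only 12 of the 13 members had a fragment in either library.

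Among the alpha chains, none of the 3 unigenes passed the criteria in any comparison. Unigene20751, which best matched hemoglobin subunit alpha-A of the yellowtail, had 1037 fragments in the fasting library, 815 under cold stress, 760 under thermal stress and 1280 under normal feeding. All 3 treated libraries lay below normal feeding for this chain. In CPM this was 53.1 after fasting, 47.9 under cold stress, 42.4 under thermal stress and 73.2 under normal feeding. The log2 ratio of Unigene20751 to normal feeding was -0.46 for fasting, -0.61 for cold stress and -0.79 for thermal stress, with a 95% counting interval from -0.92 to -0.66 in the last.

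Unigene1588, whose best hit was the croaker's own alpha1 hemoglobin, had 348 fragments in the fasting library, 511 under cold stress, 612 under thermal stress and 458 under normal feeding. It was thus lowest after fasting and highest under thermal stress. Its log2 ratio was -0.56 for fasting, 0.20 for cold stress (interval 0.01 to 0.38) and 0.38 for thermal stress (interval 0.21 to 0.56). The third alpha chain, Unigene2561, was similar to an alpha-D chain and had between 6 and 16 fragments in the 4 libraries. Alpha-D is a minor adult alpha chain in birds and reptiles.

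Summed over the 3 alpha chains, the fragments came to 1394 after fasting, 1332 under cold stress, 1388 under thermal stress and 1749 under normal feeding. The log2 ratio of this sum was -0.49 for fasting, -0.35 for cold stress and -0.37 for thermal stress. Without Unigene20751, which holds most of the sum, the ratio was 0.18 for cold stress and 0.39 for thermal stress, so the direction under stress rests on that chain. In a bulk liver library, fewer red blood cells and less globin RNA per cell cannot be told apart.

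**Figure D1:**
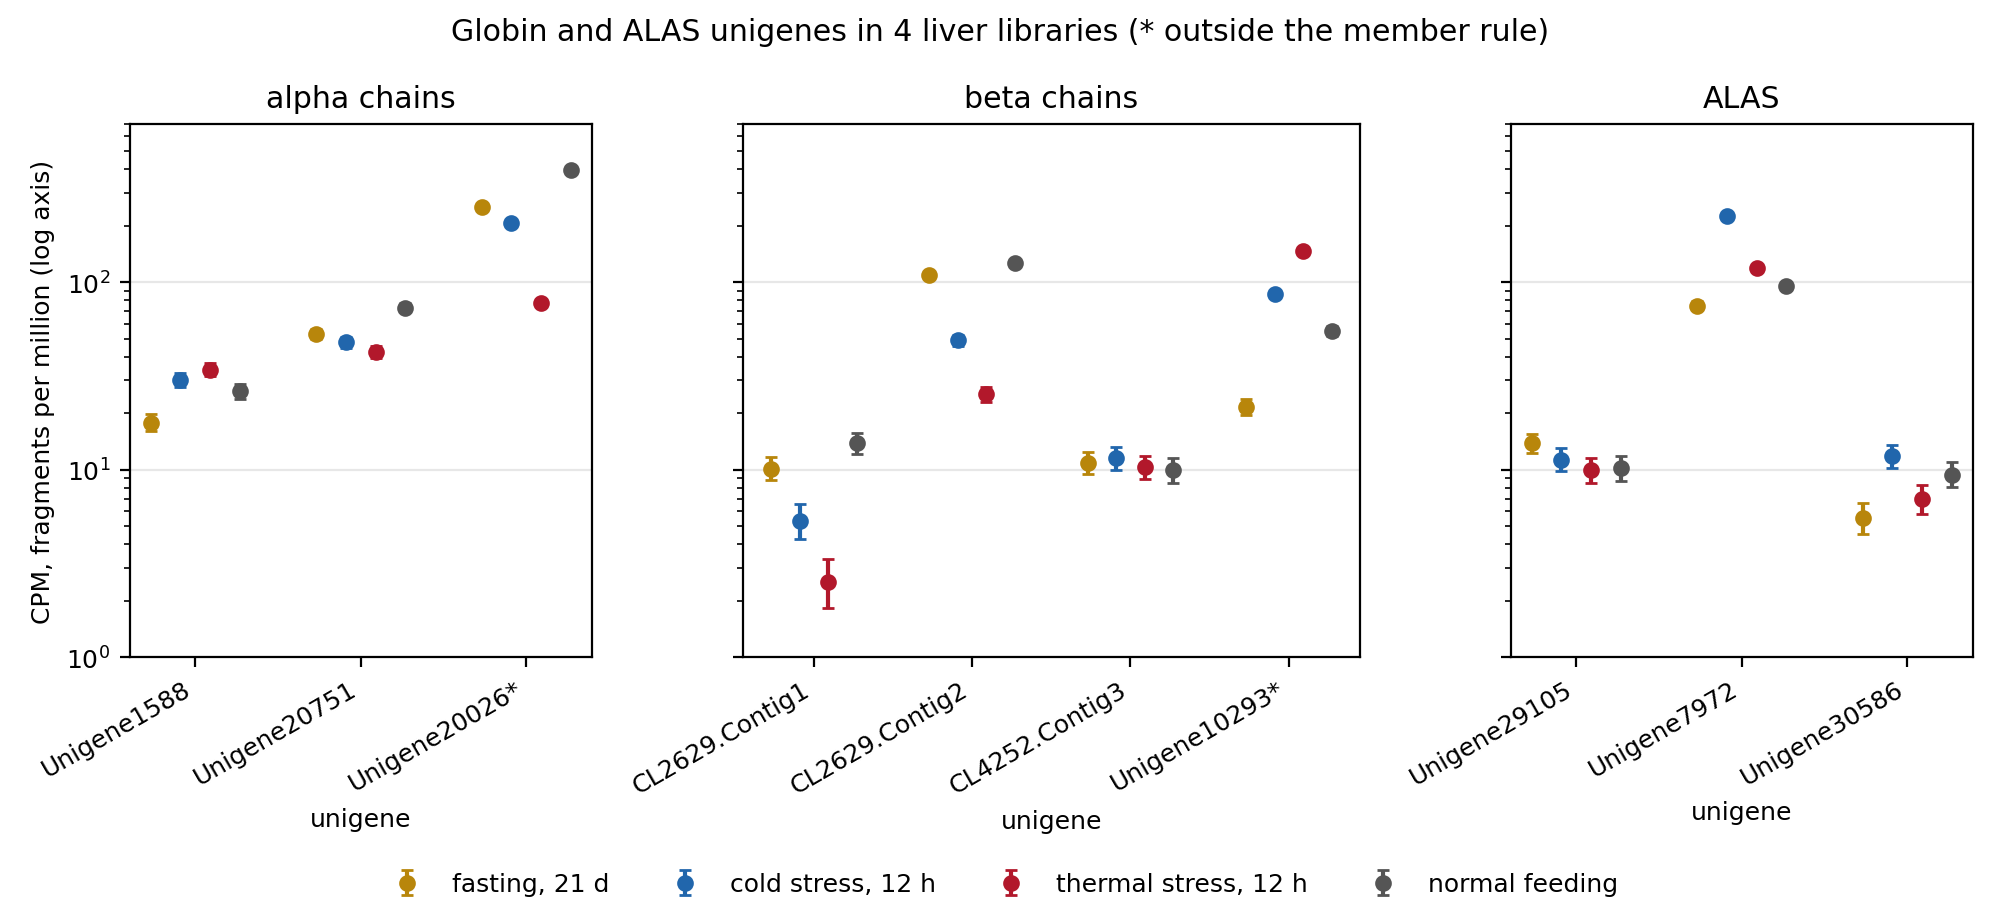
CPM (log axis) of the 8 member unigenes with at least 50 fragments, and of the 2 globin unigenes outside the member rule (asterisk), in the fasting, cold stress, thermal stress and normal feeding libraries. Bars are exact 95% counting intervals. The beta contigs of CL2629 are lowest under thermal stress, whereas Unigene10293 is highest there, and the ALAS unigene Unigene7972 is highest under cold stress.

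The beta chain members showed 2 patterns. The 2 contigs of cluster CL2629, both most similar to a beta globin of the stickleback, were lower under cold and thermal stress. CL2629.Contig2 (627 bp) had 2127 fragments after fasting, 835 under cold stress, 451 under thermal stress and 2197 under normal feeding. CL2629.Contig1 (915 bp) had 198 fragments after fasting, 91 under cold stress, 45 under thermal stress and 243 under normal feeding. In both contigs the thermal stress library was the lowest of the 4, and the fasting library was the nearest to normal feeding.

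For CL2629.Contig2 the log2 ratio was -0.21 for fasting, -1.36 for cold stress (interval -1.47 to -1.24) and -2.32 for thermal stress (interval -2.47 to -2.17). CL2629.Contig1 gave -0.45 for fasting, -1.38 for cold stress and -2.47 for thermal stress. The 2 contigs together had 2325 fragments after fasting, 926 under cold stress, 496 under thermal stress and 2440 under normal feeding. In CPM, their sum was 2.56-fold lower under cold stress (exact binomial p = 1.81e-146) and 5.04-fold lower under thermal stress (p = 3.8e-317, the same exact test). These contigs are the 2 members called lower in both stress comparisons. When a biological coefficient of variation of 0.4 was assumed in edgeR's exact test, the calls of CL2629.Contig1 and CL2629.Contig2 held for thermal stress (p = 0.00641 and 0.00818) and were lost for cold stress (p = 0.113 and 0.111).

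The 4 contigs of cluster CL4252, whose best hit was the beta hemoglobin of the large yellow croaker itself, showed no such difference in counted fragments. CL4252.Contig3 had 212 fragments after fasting, 197 under cold stress, 185 under thermal stress and 174 under normal feeding. Its log2 ratio was 0.13 for fasting, 0.22 for cold stress and 0.05 for thermal stress, and all 3 intervals included 0 (from -0.25 to 0.36 for thermal stress). The other 3 contigs of the cluster had between 0 and 5 fragments in any library.

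Unigene31709, similar to a cathodic beta chain, had 9 fragments after fasting, 8 under cold stress, 0 under thermal stress and 1 under normal feeding. In catfish, cathodic hemoglobins keep their oxygen affinity in acid blood. It was called higher after fasting (8.06-fold, log2 interval 0.16 to 8.47) and under cold stress (8.22-fold, log2 interval 0.14 to 8.51), and is named here after its values were seen. With counts under 3 set to 3, as in the ratios used for medians, these are 2.69-fold and 2.74-fold. The 2-fold criterion of a call used the counts as deposited. These calls rest on 1 fragment in the normal feeding library, and the adjusted p over all unigenes by the Benjamini-Hochberg method, from the same exact test, was 0.067 for fasting and 0.050 for cold stress. The 0 fragments under thermal stress allow up to 3 by the rule of 3 counts, or 0.167 CPM.

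Summed over the 7 beta chain members, the fragments came to 2554 after fasting, 1137 under cold stress, 686 under thermal stress and 2622 under normal feeding. The log2 ratio of the beta sum was -0.20 for fasting, -1.17 for cold stress (interval -1.27 to -1.06) and -1.97 for thermal stress (interval -2.09 to -1.85). Without CL2629.Contig2 the ratio was -0.45 for cold stress and -0.89 for thermal stress, under the 2-fold criterion in both. All hemoglobin members together had 202 CPM after fasting, 145 under cold stress, 116 under thermal stress and 250 under normal feeding. The ratio of that total was -0.31, -0.78 and -1.11 on the log2 scale for fasting, cold stress and thermal stress.

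**Figure D2:**
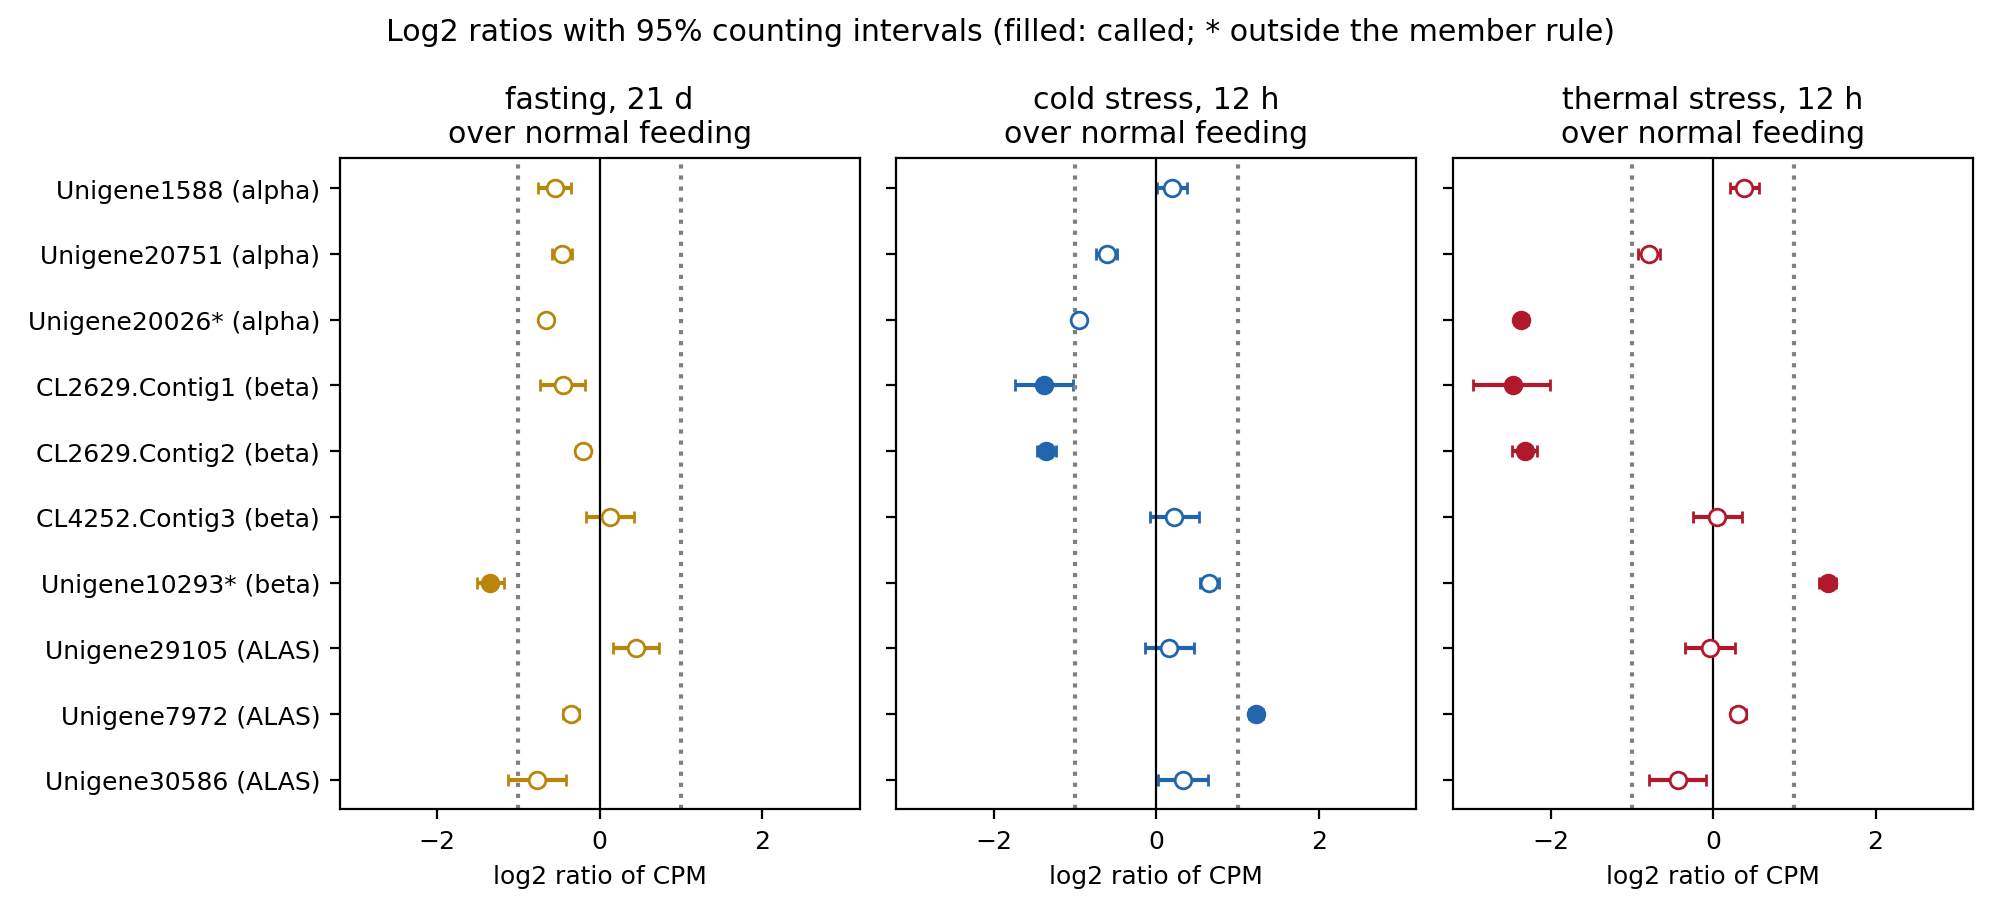
Log2 ratio of CPM to normal feeding (horizontal axis) for the same unigenes, in a panel each for fasting, cold stress and thermal stress. Bars are exact 95% counting intervals, filled points passed the criteria and dotted lines mark 2-fold. In the thermal stress panel CL2629.Contig1, CL2629.Contig2 and Unigene20026 lie between -2.47 and -2.32, and Unigene10293 lies at 1.41.

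A pair of globin unigenes lay outside the rule because their best hits were worded as alpha-type and beta-type globin, and both were picked out after their values were seen. They are among the most abundant globin transcripts of these libraries. Unigene20026, a head-kidney alpha-type globin in the Japanese sea bass, had 4931 fragments after fasting, 3507 under cold stress, 1390 under thermal stress and 6963 under normal feeding. Unigene10293, an adult beta-type globin in medaka, had 423 fragments after fasting, 1471 under cold stress, 2620 under thermal stress and 963 under normal feeding. The alpha-type chain was thus lowest under thermal stress, and the beta-type chain was highest there and lowest after fasting.

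The log2 ratio of Unigene20026 was -0.66 for fasting, -0.95 for cold stress and -2.36 for thermal stress (interval -2.44 to -2.28), the last called lower. Of its 832 bp, reads covered 98.3% after fasting, 69.6% under cold stress, 64.1% under thermal stress and 98.7% under normal feeding, and the part of this coverage in its ratios was not tested. Unigene10293 gave -1.35 for fasting (interval -1.51 to -1.18, called lower), 0.65 for cold stress and 1.41 for thermal stress (interval 1.30 to 1.52, called higher). Its covered length was between 91.7% and 98.2% in the 4 libraries. With the assumed biological variation in edgeR's exact test, the call of Unigene20026 held (p = 0.00702), and those of Unigene10293 did not (p = 0.114 for fasting and 0.0975 for thermal stress).

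With Unigene10293 added, the beta sum was 2977 fragments after fasting, 2608 under cold stress, 3306 under thermal stress and 3585 under normal feeding. Its log2 ratio was then -0.43 for fasting, -0.42 for cold stress and -0.15 for thermal stress, none of them past 2-fold. By mapped reads, the same sum gave -0.54 for fasting, -0.64 for cold stress and -0.72 for thermal stress. With Unigene20026 added, the alpha sum had a log2 ratio of -0.62 for fasting, -0.81 for cold stress and -1.68 for thermal stress, the last called lower. For all 12 globin unigenes together the ratio was -0.56 for fasting, -0.68 for cold stress and -1.05 for thermal stress. That last total was 340 CPM under thermal stress and 703 under normal feeding.

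**Figure D3:**
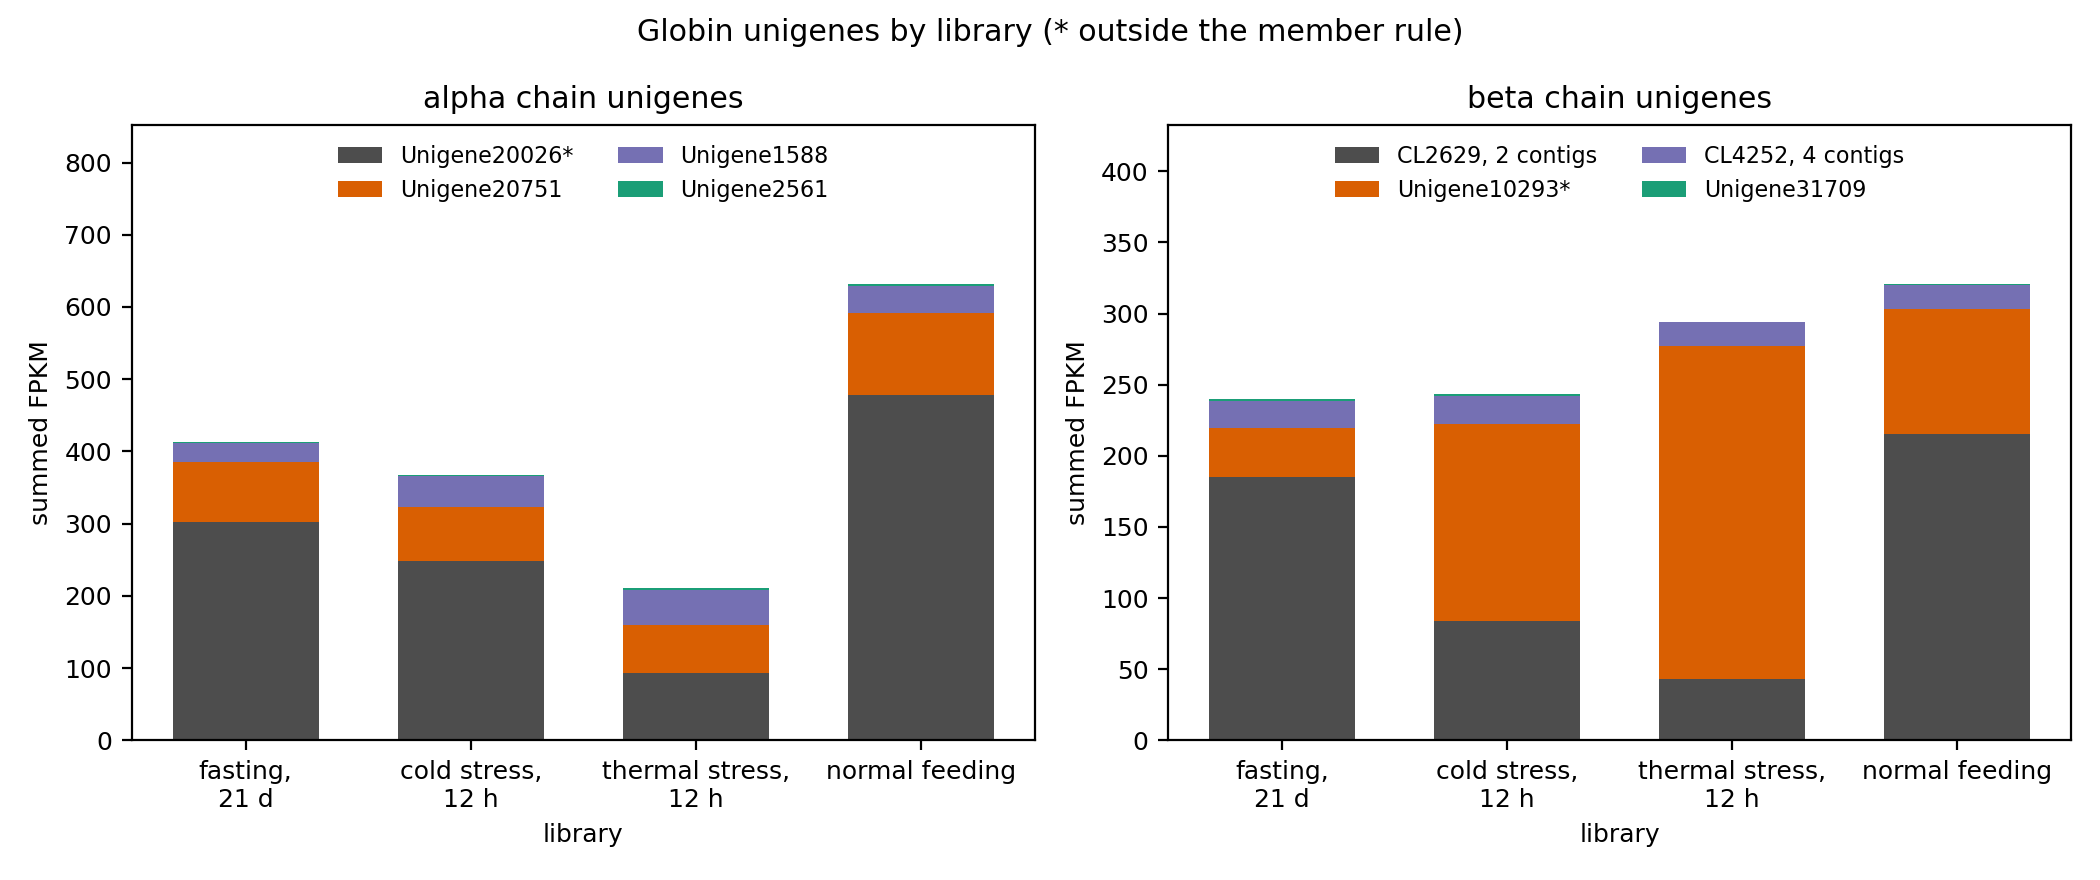
Summed FPKM of the alpha chain unigenes (left) and beta chain unigenes (right) in the fasting, cold stress, thermal stress and normal feeding libraries, stacked by unigene or contig cluster (asterisk, outside the member rule). The beta total lies between 239 and 321 FPKM in all libraries, with CL2629 the larger piece after fasting and under normal feeding and Unigene10293 the larger piece under both stresses. The alpha total is 211 FPKM under thermal stress and 632 FPKM under normal feeding.

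Per length, the make-up of the beta chains differed between libraries more than their total did. Of the summed beta FPKM, CL2629 took 77.2% after fasting, 34.5% under cold stress, 14.6% under thermal stress and 67.2% under normal feeding. Unigene10293 took 14.5% after fasting, 56.8% under cold stress, 79.5% under thermal stress and 27.5% under normal feeding. CL4252 took between 5.32% and 8.08%. By mapped reads, which include those that fit several places, CL4252 took 22.2% of the beta reads after fasting, 16.7% under cold stress, 14.8% under thermal stress and 12.97% under normal feeding. CL2629 then took 48.3% and Unigene10293 34.8% under cold stress, so the larger piece there depends on the counting, and under thermal stress they took 23.1% and 62.1%. No error between replicates stands behind these shares.

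Among the alpha chains, Unigene20026 took 73.4% of the summed FPKM after fasting, 67.6% under cold stress, 44.2% under thermal stress and 75.7% under normal feeding. Unigene1588 took 6.18% after fasting, 11.7% under cold stress, 23.2% under thermal stress and 5.93% under normal feeding. The fasting and normal feeding libraries thus had a like alpha make-up. Thermal stress lay furthest from it, and cold stress lay in between.

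The balance of alpha to beta depended on which unigenes were counted. Over the members, alpha chains made up 35.3% of the hemoglobin fragments after fasting (exact 95% interval 33.8 to 36.8), 53.9% under cold stress (52.0 to 55.9), 66.9% under thermal stress (64.9 to 68.9) and 40.0% under normal feeding (38.6 to 41.5). With the pair outside the rule they made up 68.0% after fasting, 65.0% under cold stress, 45.7% under thermal stress and 70.8% under normal feeding. The thermal stress library therefore had the highest alpha share by the first count and the lowest by the second. The alpha unigenes share no reads, whereas fragments leave out much of the beta reads. By mapped reads, taking the largest number on any contig of a beta cluster, the members' alpha share was 21.4% after fasting, 31.0% under cold stress, 44.5% under thermal stress and 21.5% under normal feeding. With the pair outside the rule it was 54.4%, 52.5%, 38.5% and 55.5% in the same order of libraries. These intervals cover counting error only. They treat each fragment as independent, which reads amplified by PCR are not.

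ALAS was higher under cold stress through its nonspecific form. Unigene7972 (2224 bp), annotated as nonspecific ALAS, had 1465 fragments after fasting, 3806 under cold stress, 2128 under thermal stress and 1675 under normal feeding. The cold stress library stood above the other 3. Its log2 ratio was -0.35 for fasting, 1.22 for cold stress (interval 1.14 to 1.31, exact binomial p = 6.17e-200) and 0.31 for thermal stress (interval 0.22 to 0.40), and it was called higher under cold stress. With the assumed biological variation in edgeR's exact test that p was 0.148.

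Unigene30586 (1217 bp), also annotated as nonspecific ALAS, had 108 fragments after fasting, 201 under cold stress, 125 under thermal stress and 165 under normal feeding. It followed the same order in that fasting was lowest and cold stress highest, but thermal stress lay below normal feeding. Its log2 ratio was -0.77 for fasting, 0.32 for cold stress and -0.44 for thermal stress, none of them past 2-fold. These fragments leave out most of its reads, as between 85.1% and 92.6% of its mapped reads fitted several places. By all mapped reads it had 1769 after fasting, 5152 under cold stress, 2551 under thermal stress and 2193 under normal feeding. Thermal stress then lay above normal feeding. The reads that fitted several places were equal in number to those of Unigene7972, so this change of order cannot be credited to Unigene30586. By its reads that fit 1 place, Unigene30586 kept thermal stress below normal feeding, at 239 against 326 (log2 ratio -0.47). Reads covered 66.3% of its length under thermal stress and between 98.4% and 99.3% in the other libraries.

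The erythroid-specific form, Unigene29105 (2135 bp), had 271 fragments after fasting, 193 under cold stress, 178 under thermal stress and 178 under normal feeding. Only the fasting library stood above normal feeding beyond counting error, with a log2 ratio of 0.45 (interval 0.17 to 0.73), and it did not reach 2-fold. The ratio was 0.16 for cold stress and -0.03 for thermal stress, and the intervals of both included 0. Under TMM scaling (edgeR) and size-factor scaling (DESeq2), which set library sizes from the bulk of unigenes, the cold stress ratio of Unigene29105 was -0.05 and -0.03, and its thermal stress ratio was 0.11 and 0.12.

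Per length, the nonspecific ALAS unigenes summed to 38.3 FPKM after fasting, 110 FPKM under cold stress, 59.1 FPKM under thermal stress and 50.8 FPKM under normal feeding. The erythroid-specific unigene had 6.50 FPKM after fasting, 5.31 under cold stress, 4.65 under thermal stress and 4.77 under normal feeding. Nonspecific ALAS was thus the more abundant form in all 4 libraries. All 3 ALAS unigenes together had a log2 ratio of -0.29 for fasting, 1.10 for cold stress and 0.23 for thermal stress. Under TMM scaling the cold stress ratio of this sum was 0.89 and under size factors 0.91, both under the 2-fold criterion.

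Several members shared reads, and the deposited fragments left most of these reads out. The 2 contigs of CL2629 each had 2919 reads that also fitted elsewhere after fasting, 2390 under cold stress, 1028 under thermal stress and 5400 under normal feeding. The 2 nonspecific ALAS unigenes likewise had equal numbers of such reads in each library, 4770 under cold stress and 1867 under normal feeding. In CL4252.Contig1, which had 0 fragments under cold stress and normal feeding, 994 and 1168 reads mapped in those libraries and all of them fitted several places. Unigene1588, Unigene20751, Unigene29105, Unigene10293 and Unigene20026 had no such reads.

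When each group was measured instead by the largest number of mapped reads on any of its unigenes, CL2629 had 7082 reads after fasting, 4005 under cold stress, 1910 under thermal stress and 9694 under normal feeding. Its log2 ratio was then -0.61 for fasting, -1.24 for cold stress and -2.38 for thermal stress. CL4252 had 2257 reads after fasting, 1387 under cold stress, 1222 under thermal stress and 1727 under normal feeding. The ratio of CL4252 was 0.23 for fasting, -0.28 for cold stress and -0.53 for thermal stress. The direction under both stresses thus differed from that by fragments. The largest number was on CL4252.Contig3 in the treated libraries and on CL4252.Contig4 under normal feeding, where CL4252.Contig3 had 1519 reads. These ratios therefore set different contigs against each other, and their size depends on that. ALAS1 kept its pattern, with -0.37 for fasting, 1.27 for cold stress and 0.30 for thermal stress.

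**Figure D4:**
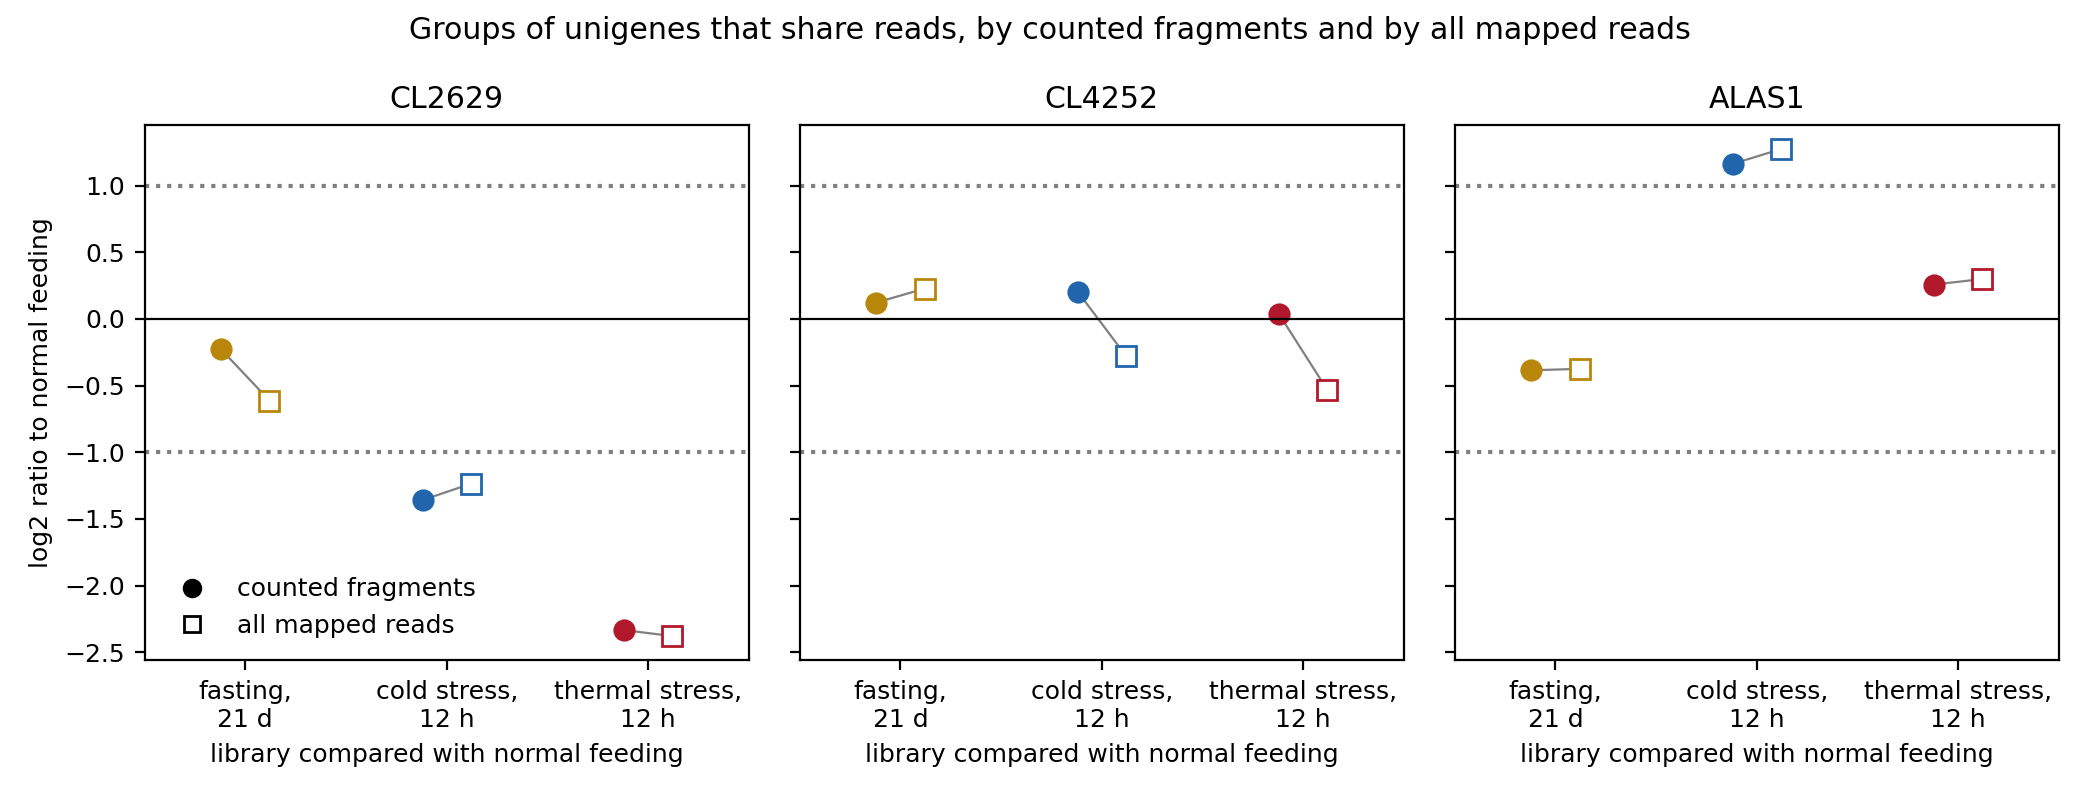
Log2 ratio to normal feeding (vertical axis) of the CL2629 contigs, the CL4252 contigs and the nonspecific ALAS unigenes for fasting, cold stress and thermal stress. Filled circles use counted fragments and open squares the largest number of mapped reads on any unigene of the group. Circles and squares lie close together for CL2629 under stress and for ALAS1, while CL4252 crosses 0 under cold and thermal stress.

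Of the enzymes that carry the pathway on to heme after ALAS, 6 were followed, and the 11 unigenes annotated to them were counted by enzyme. After fasting 4 of these unigenes were called lower and 0 higher, with a median log2 ratio of -0.28, beside 18.2% lower and 12.8% higher of all unigenes. Under cold stress 2 were called lower and 0 higher (median -0.32; all unigenes 13.8% and 20.8%), and under thermal stress 2 were called higher and 1 lower (median -0.18; all unigenes 9.60% and 16.1%). By enzyme, 2 were lower after fasting, 1 was lower under cold stress and 1 was higher under thermal stress.

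Coproporphyrinogen oxidase (CPOX), which acts in the mitochondrion late in the pathway, differed most between libraries. Its unigene CL3407.Contig1 had 121 fragments after fasting, 484 under cold stress, 2270 under thermal stress and 560 under normal feeding. It was lowest after fasting and highest under thermal stress. The log2 ratio of CPOX was -2.37 for fasting (interval -2.66 to -2.08, called lower), -0.17 for cold stress and 1.98 for thermal stress (interval 1.85 to 2.12, called higher).

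ALAD, which joins the product of ALAS into a pyrrole, had 161 fragments after fasting, 387 under cold stress, 303 under thermal stress and 408 under normal feeding. Its log2 ratio for fasting was -1.50 (interval -1.77 to -1.23, called lower), and the stress libraries did not reach 2-fold.

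UROS, which closes the porphyrinogen ring, had 24 fragments after fasting, 4 under cold stress, 24 under thermal stress and 14 under normal feeding. It was called lower under cold stress at a log2 ratio of -1.77 (interval -3.83 to -0.10). UROD, the decarboxylase before CPOX, had 504 fragments after fasting, 460 under cold stress, 315 under thermal stress and 536 under normal feeding, and passed the criteria in no comparison. PPOX had between 61 and 118 fragments and FECH, which inserts the iron, between 5 and 16, and neither sum was called. The leading FECH unigene, Unigene23752, was called higher under thermal stress (log2 ratio 1.64), with 16 fragments there and 5 under normal feeding.

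**Figure D5:**
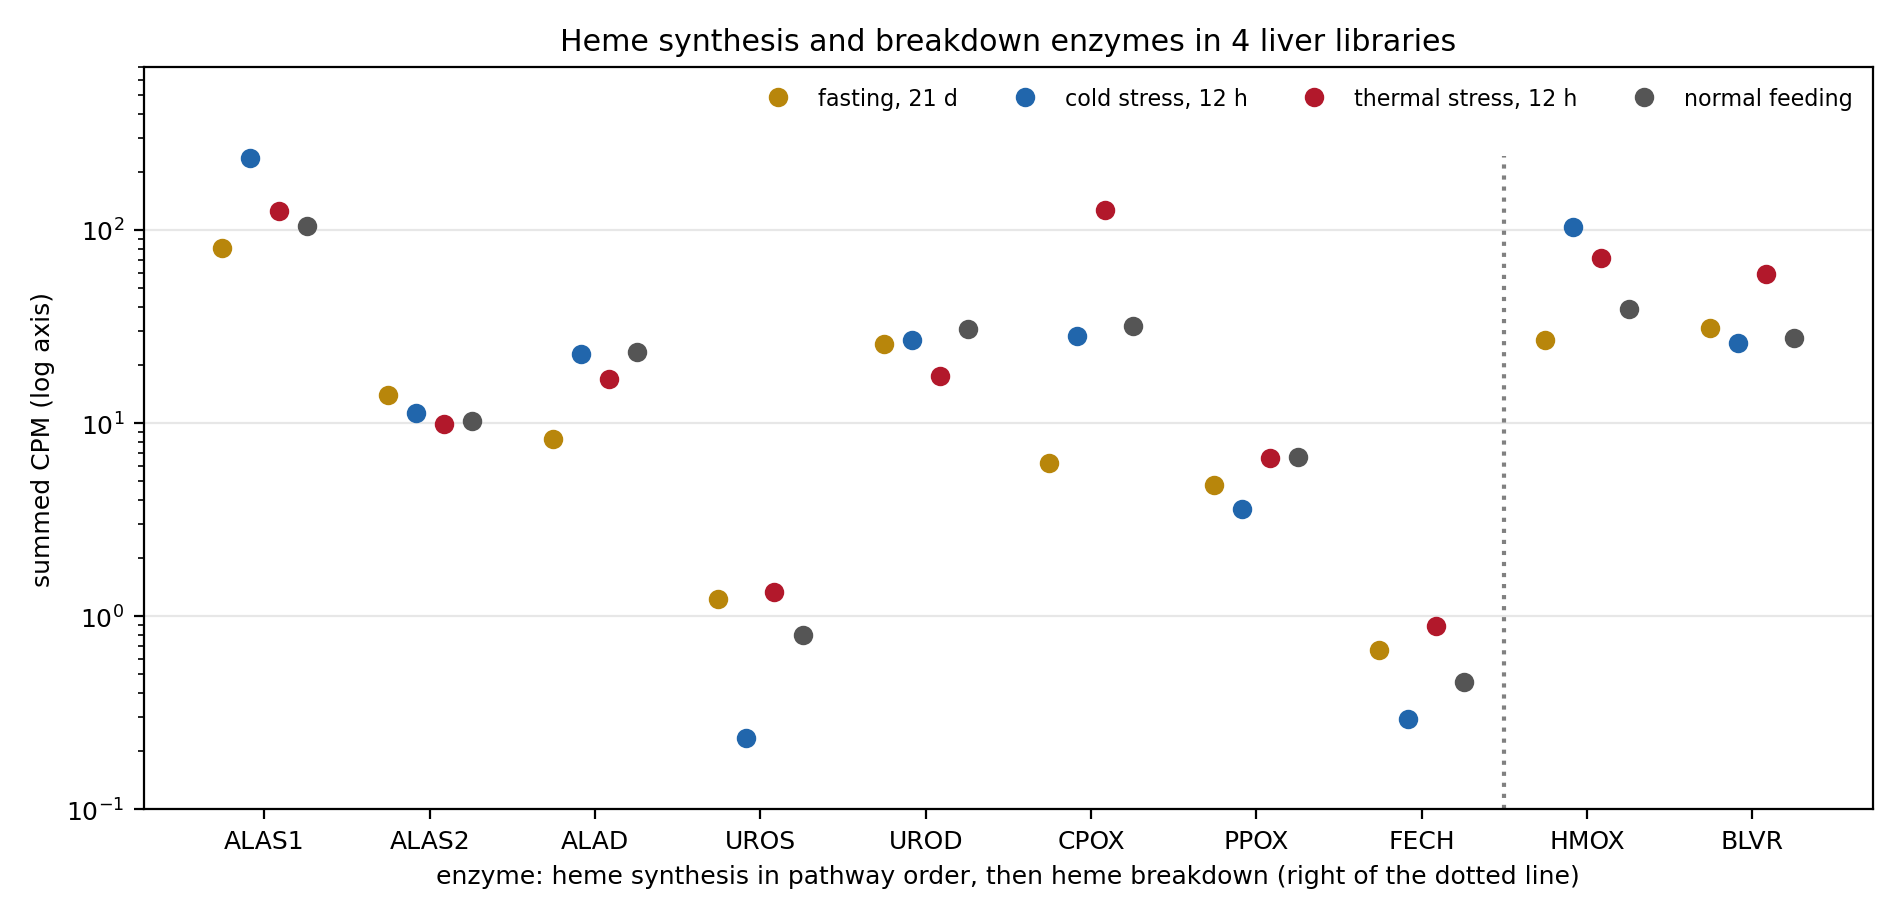
Summed CPM (log axis) of ALAS1, ALAS2 and 6 later heme synthesis enzymes in pathway order, then of the heme breakdown enzymes right of the dotted line, in the fasting, cold stress, thermal stress and normal feeding libraries. CPOX spans 6.20 CPM after fasting to 127 under thermal stress, ALAS1 is highest under cold stress, and ALAD is lowest after fasting.

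On the breakdown side, heme oxygenase (HMOX), which opens the heme ring, had 524 fragments over 6 unigenes after fasting, 1750 under cold stress, 1283 under thermal stress and 680 under normal feeding. Both stress libraries lay above normal feeding, and the cold stress sum was called higher with a log2 ratio of 1.40 (interval 1.27 to 1.53). The sum gave -0.53 for fasting and 0.88 for thermal stress. Its most abundant unigene, a heme oxygenase 1 (CL1795.Contig1), had 110 fragments after fasting, 559 under cold stress, 607 under thermal stress and 136 under normal feeding, and was called higher under both stresses (log2 ratios 2.08 and 2.12).

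Unigenes annotated to biliverdin reductase (BLVR), the next step of breakdown, had 603 fragments after fasting, 445 under cold stress, 1055 under thermal stress and 485 under normal feeding. The thermal stress sum was called higher at a log2 ratio of 1.09. Its most abundant unigene, Unigene29775, matched the form that also acts as a flavin reductase. Unigene29775 held 887 of the 1055 fragments under thermal stress and 325 of the 485 under normal feeding. Most of the thermal stress sum was thus this form. After fasting it had 195 fragments, and under cold stress 281. Its log2 ratio was -0.90 for fasting, -0.17 for cold stress and 1.41 for thermal stress, the last called higher. The sum of all BLVR unigenes lay on the other side after fasting, at 0.16. Of the 13 unigenes of both breakdown enzymes, 3 were called higher and 1 lower after fasting (median log2 ratio -0.42), 5 higher and 1 lower under cold stress (0.78), and 3 higher and 1 lower under thermal stress (-0.01). The shares of all unigenes called higher and lower were 12.8% and 18.2%, 20.8% and 13.8%, and 9.60% and 16.1% in these comparisons.

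Markers of red blood cells were read beside the globins. Of 13 marker genes, 8 had a unigene, and together they came to 68.6 CPM after fasting, 78.1 under cold stress, 66.4 under thermal stress and 58.8 under normal feeding. The transferrin receptor (TFRC) is also made by other cells. Without it the sum was 42.4 CPM after fasting, 48.8 under cold stress, 29.8 under thermal stress and 42.8 under normal feeding. Thermal stress was then the lowest library. Of this sum, EPB41 held 12.3 CPM after fasting, 26.3 under cold stress, 10.8 under thermal stress and 23.0 under normal feeding. Most of the gap between thermal stress and normal feeding in this sum was therefore EPB41. The sum also holds ALAS2, itself a member. Without TFRC and ALAS2 the sum was 28.6 CPM after fasting, 37.5 under cold stress, 19.9 under thermal stress and 32.6 under normal feeding. Erythrocyte spectrin alpha and beta, mitoferrin 1, GATA1 and KLF1 had no unigene annotated to them. Of the 28 unigenes of the list, which include the ALAS2 member, 8 were called higher and 3 lower after fasting (median log2 ratio 0.52), beside 12.8% and 18.2% of all unigenes. Under cold stress 9 were higher and 2 lower (0.04), beside 20.8% and 13.8%, and under thermal stress 5 were higher and 1 lower (-0.10), beside 9.60% and 16.1%.

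Band 3 (SLC4A1), the chloride and bicarbonate exchanger of the red cell membrane, had 23 fragments in its most abundant unigene after fasting, 71 under cold stress, 26 under thermal stress and 33 under normal feeding. Only the cold stress library of that unigene was called higher (log2 ratio 1.15), and the sum of its 3 unigenes, 100 fragments against 61, was not (0.75). RHAG, a gas and ammonium channel of the same membrane, had 79 fragments in Unigene21251 after fasting, 14 under cold stress, 18 under thermal stress and 23 under normal feeding, and was called higher after fasting (1.62). TFRC, which brings in iron, had 32 fragments in CL95.Contig1 after fasting, 238 under cold stress, 344 under thermal stress and 68 under normal feeding. That unigene was called lower after fasting (-1.25) and higher under cold stress (1.85) and thermal stress (2.30). All 9 TFRC unigenes together had 510 fragments after fasting, 499 under cold stress, 656 under thermal stress and 280 under normal feeding, with log2 ratios of 0.71, 0.87 and 1.19, so the gene's sum after fasting lay on the other side from CL95.Contig1. Only the thermal stress sum was called.

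EPB41 codes for a protein of the red cell membrane skeleton, and its unigene CL1249.Contig1 had 92 fragments after fasting, 161 under cold stress, 88 under thermal stress and 282 under normal feeding, and was called lower after fasting (-1.77) and under thermal stress (-1.71). The sum of the 3 EPB41 unigenes was called lower under thermal stress alone, with log2 ratios of -0.90 for fasting, 0.20 for cold stress and -1.09 for thermal stress. ANK1, EPOR and DMTN had at most 30 fragments in their leading unigene in any library. At these low counts, the ANK1 unigene was called higher after fasting (1.61) and under cold stress (1.72). The EPOR unigene was called higher under thermal stress (1.29). The DMTN unigene was called lower under cold stress, with 1 fragment there and 10 under normal feeding (-1.70 with the 1 set to 3). All 6 ANK1 unigenes together had 73 fragments after fasting, 44 under cold stress, 37 under thermal stress and 23 under normal feeding. That sum was called higher after fasting (1.51), and the EPOR and DMTN sums were not called. The markers' part in the globin ratios was not tested.

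Markers of other blood cells were also read, since whole liver holds blood. White blood cell markers came to 338 CPM after fasting, 381 under cold stress, 269 under thermal stress and 436 under normal feeding, with all 6 genes found. The leading unigene of CD74, the invariant chain of antigen-presenting cells, had 4933 fragments after fasting, 4764 under cold stress, 3253 under thermal stress and 5404 under normal feeding, and passed the criteria in no comparison. CD74 held most of the sum, with 253 CPM after fasting, 280 under cold stress, 182 under thermal stress and 309 under normal feeding. Myeloperoxidase (MPO) had 7 fragments after fasting, 21 under cold stress, 36 under thermal stress and 57 under normal feeding. The MPO sum was called lower after fasting (log2 ratio -3.18) and under cold stress (-1.40). Its leading unigene was called lower in all 3 comparisons, and no other white cell gene's sum was called. Of the 29 white cell unigenes, 0 were called higher and 4 lower after fasting, and 1 higher and 4 lower under cold stress. Under thermal stress 1 was called higher and 7 lower. Of all unigenes, 12.8%, 20.8% and 9.60% were called higher and 18.2%, 13.8% and 16.1% lower for fasting, cold stress and thermal stress. Thrombocyte markers, 4 of 5 found, came to 16.9 CPM after fasting, 44.5 under cold stress, 33.0 under thermal stress and 18.5 under normal feeding. Most of that list is thrombospondin 1, which had 258 fragments after fasting, 724 under cold stress, 491 under thermal stress and 239 under normal feeding, and which other cells also make. The thrombospondin 1 sum was called higher under cold stress (log2 ratio 1.64) and thermal stress (1.00). The platelet integrin ITGA2B had 48 fragments after fasting, 9 under cold stress, 75 under thermal stress and 66 under normal feeding, and was called lower under cold stress (log2 ratio -2.83). GP1BB was called higher under thermal stress (1.09), with 24 fragments there and 11 under normal feeding. F13A1 was called lower after fasting, with 1 fragment there and 7 under normal feeding. Of the 14 thrombocyte unigenes, 0 were called higher and 1 lower after fasting, and 3 higher and 4 lower under cold stress. Under thermal stress 2 were called higher and 0 lower. These counts stand beside the same shares of all unigenes as the white cell counts.

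The unigenes whose 3 log2 ratios lay closest to those of the hemoglobin sum were sought among 13685 annotated unigenes with at least 100 fragments. The nearest 5 were the beta chain of methylcrotonoyl-CoA carboxylase (Unigene7428), a leucine breakdown enzyme, heparan sulfate 2-O-sulfotransferase 1 (Unigene3485), TRIM39 (Unigene27238), a subunit of the activating signal cointegrator 1 complex (Unigene29005) and SREBP1 (Unigene6562), a regulator of lipid synthesis. Their Euclidean distances were 0.098 to 0.148 on the log2 scale over only 3 ratios. The hemoglobin sum used here held the members only. With the pair outside the rule its ratios were -0.56 for fasting, -0.68 for cold stress and -1.05 for thermal stress. The 5 unigenes named here refer to the member sum alone. Unigene7428 had 391 fragments after fasting, 268 under cold stress, 219 under thermal stress and 452 under normal feeding.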

How the data were processed

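Liver mRNA was sequenced as paired-end reads and assembled without a genome by the authors, with Trinity according to the methods text and with SOAPdenovo according to the results text, and the unigenes were annotated by BLASTx. The aligner and counter are not given in the sources used here. The deposited counts are raw fragments per unigene, and FPKM values, also as deposited, scale each count to the length of its unigene and the library's fragments. Coverage tables deposited by the authors give, per unigene, its length, the counts of reads that fit 1 or several places, the mean read depth (signal, not used further), GC percent and the percent of the length with reads. For unigenes without shared reads, 2 reads per counted fragment came to a median of 1.07 to 1.08 of the mapped reads, whereas for unigenes with over 90% shared reads it was 0.036 to 0.045, so most reads that fit several places are not in the counts. The deposited comparison tables hold the authors' log2 ratios, p-values and false discovery rates and were not used. There were 0 unused columns of further samples.

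Fragments counted were 19529986 (fasting), 17020100 (cold stress), 17918349 (thermal stress) and 17494043 (normal feeding). Each treated library was compared with normal feeding by an exact two-sided binomial test on fragments over all unigenes, scaled by library totals, and called at an unadjusted p under 0.05 and at least 2-fold, the study's criteria. Ratios and shares have exact (Clopper-Pearson) 95% intervals for counting error only. In ratios used for medians and in those of the gene lists a count under 3 was set to 3. No ratio was given where both counts were at or under 3. The 2-fold criterion of a call used the counts as deposited, without this step. The procedure was tested on simulated data. Members with at least 50 fragments over the 4 libraries were named (8 of 13), as were 6 later heme synthesis enzymes (a further item is not reported here), the leading unigene of genes in the other lists (not all printed), and the 5 unigenes nearest to the hemoglobin sum. Lists covered heme synthesis and breakdown, red and white blood cells, thrombocytes, hepatocytes and exocrine pancreas. Members and lists were chosen with earlier results of these data known. Alternatives were TMM (edgeR 4.0.16) and size factors (DESeq2 1.42.0), adjusted p, a minimum of 10 fragments, totals without digestive enzymes, 0.5 fragments added, summed contig clusters, reads that fit 1 place, FPKM for the chain balance, leaving out the leading unigene, and edgeR's exact test in which a biological coefficient of variation of 0.4 was assumed. Scripts ran in R 4.3.3 and in Python 3.11.15 (scipy 1.17.1, pandas 2.3.3, numpy 2.4.6, matplotlib 3.10.9).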

Additional observations from a re-analysis of the deposited data

Results flagged for a closer look

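Some transcripts lay on opposite sides of normal feeding in different treatments, each past the criteria, and since each treatment has 1 library the difference between treatments was not tested. CPOX had a log2 ratio of -2.37 for fasting and 1.98 for thermal stress. Unigene10293, the beta-type globin outside the member rule, had -1.35 for fasting and 1.41 for thermal stress. CL95.Contig1, the transferrin receptor unigene with the most fragments over the 4 libraries, had -1.25 for fasting, 1.85 for cold stress and 2.30 for thermal stress, whereas the sum of all 9 transferrin receptor unigenes had 0.71, 0.87 and 1.19 and lay above normal feeding in all 3. All of these ratios share the normal feeding library.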

How the results depend on the processing

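Of 128 values recomputed for the member counts, chain sums and balances, 91 kept direction and side of the criteria (for a count, within 1.5 times; for a balance, within its interval). Among these, members called under cold stress were 3 instead of 4 with adjusted p, with at least 10 fragments and with summed clusters. Members called after fasting were 0 with adjusted p, with at least 10 fragments or with a biological coefficient of variation of 0.4, and 2 by reads that fit 1 place or with the pair of globins outside the rule. Under cold stress that coefficient left 0, and under thermal stress summed clusters gave 1 and the added globins 4. In edgeR's exact test with that coefficient the cold stress ratios of beta chains (-1.17, p = 0.168) and ALAS (1.10, p = 0.193) were no longer called. The beta sum for cold stress was -0.45 without its leading unigene and -0.42 with Unigene10293, and for thermal stress -0.89 and -0.15, and by mapped reads with Unigene10293 it was -0.64 and -0.72. The alpha sum without its leading unigene was 0.18 for cold stress and 0.39 for thermal stress, and with Unigene20026 it was -1.68 for thermal stress. The ALAS sum for cold stress was 0.89 under TMM, 0.91 under size factors and 0.24 without its leading unigene, and for thermal stress -0.21 without it. What is left without it includes Unigene30586, most of whose reads fit several places and are not counted. ALAS2 on its own gave 0.45, 0.16 and -0.035 for fasting, cold stress and thermal stress. With the added globins the alpha share was 68.0% after fasting, 65.0% under cold stress, 45.7% under thermal stress and 70.8% under normal feeding. By mapped reads it was 21.4%, 31.0%, 44.5% and 21.5% over the members, and 54.4%, 52.5%, 38.5% and 55.5% with the added globins, in the same order. Of 120 values for single named unigenes, 108 kept direction and side. The reversals were Unigene1588 for cold stress under TMM (-0.0078) and Unigene29105 under TMM and size factors (cold stress -0.049 and -0.027, thermal stress 0.11 and 0.12). The 5 that lost their call did so at a biological coefficient of variation of 0.4, and the call that Unigene20026 gained under cold stress came with TMM (-1.16) and size factors (-1.13). In both sets, edgeR's exact test kept each ratio and changed only p, so it could reverse no ratio. A ratio under 2-fold could not gain a call there. Adding 0.5 fragments kept p and moved the ratios of the large sums little. Part of the 91 and of the 108 was therefore fixed in advance.

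TMM moved all log2 ratios by 0.12 for fasting, -0.21 for cold stress and 0.15 for thermal stress. Of all unigenes called, 41.3% were higher after fasting by library totals, 47.1% by TMM and 54.2% by size factors. For cold stress the share was 60.0%, 47.5% and 49.6%, and for thermal stress 37.3%, 48.8% and 49.4%. The alternatives with the added globins, ALAS2 alone and mapped reads were chosen after seeing the data. The red blood cell marker sums without TFRC, and without TFRC and ALAS2, were not planned beforehand. No paired analysis was possible because each condition has 1 library and no shared replicate number, and for the same reason no library could be left out. The cause of these shifts was not tested. Depth limits Unigene2561 (interval -0.69 to 1.76 for thermal stress) and Unigene31709, while the low counts of 3 CL4252 contigs stand beside 867 to 2052 mapped reads per library that nearly all fit several places.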
